A study of Arabidopsis thaliana with 6 samples.

Results

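The subject is the set of long introns of Arabidopsis thaliana, those of 400 bp or more, in plants mutant for gemin2 and in wild-type plants. Members are all rows of the deposited table of intron counts with a width of 400 bp or more, and no measured value entered the choice. They number 4479 introns in 3677 loci, of 65535 introns in 12018 loci, or 6.83% of the introns. The table used here covers chromosomes 1 and 2 and part of 3, with 2173, 1342 and 964 long introns. RNA was sequenced from gemin2 mutant plants (3 libraries) and from Col wild-type plants (WT, 3 libraries). Whole plants of both genotypes were collected 9 days after the start of growth on agar medium in constant light at 22 °C. The sample labels name no allele, and the authors' deposited table calls the mutant gemin2-1. Each intron was read relative to its own gene, as intron reads per 100 gene reads or as the log2 change of that ratio, gemin2 over WT.

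Introns are cut from the pre-mRNA by the spliceosome, which is built from small nuclear ribonucleoprotein particles (snRNPs). GEMIN2 is a partner of the SMN protein in the complex that loads Sm proteins onto small nuclear RNAs, a step of snRNP assembly. The U1 snRNP pairs with the 5' splice site, U2AF binds the pyrimidine tract and the AG at the 3' splice site, and U2 binds the branch point. Plant introns are mostly short, and their long introns lie often near the start of the gene. Reads inside an intron can come from unspliced RNA, from a retained intron, or from an exon that some transcripts of the gene carry there.

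Both splice sites of 8 introns are printed here, because these introns are among those described further on, and no link between splice site and change was tested. Each line reads 5' to 3' on the strand of the gene, from the RefSeq TAIR10.1 genome. In the 5' site lines, capitals mark the opening 6 bases of the intron, and in the 3' site lines they mark its final 2 bases. The lower-case letters before the capitals of a 5' site, and after those of a 3' site, are neighbouring bases outside the intron.
ELF3 I002, 5' site: caaGTAAGTtcactagaaattta
ELF3 I002, 3' site: aatgtgactctgtttctcattacAGtca
AT3G20430 I003, 5' site: gagGTATACactacttcaagatg
AT3G20430 I003, 3' site: gatggcaagaaatattttttcttAGgtg
AT1G10890 I002, 5' site: cagGTGATAcccctagtgtttgt
AT1G10890 I002, 3' site: ctactttattttgggtaatgttcAGgcg
U2AF65B I004, 5' site: cagGTATTTgcttcatcatctac
U2AF65B I004, 3' site: tgacgcatactactttacctagcAGgcc
GEMIN2 I003, 5' site: atgGTAATCtcgataacctcgca
GEMIN2 I003, 3' site: ttaccttgtatgattatttcttcAGaag
ARF1 I002, 5' site: aagGTTCGAtttttatttctggg
ARF1 I002, 3' site: tctcttcttttgttttgttgcccAGgta
TASTY I001, 5' site: aagATATTTtaattagttaatta
TASTY I001, 3' site: tatgatttatgttggtgataaatAGgtg
AT2G41060 I002, 5' site: cagATATTCcaatacagtacttt
AT2G41060 I002, 3' site: tgcttaatccttattcctcttgcAGgta
TASTY I001 and AT2G41060 I002 do not open with GT, unlike the other 6 introns. Of the 8, the GTAAGT that pairs fully with U1 opens ELF3 I002 alone.

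The long introns had a median width of 534 bp, against 99 bp over all introns, and the longest had 11408 bp. Of them, 45.9% were the opening intron of their gene, against 16.3% of the introns under 400 bp. Opening means, here and further on, nearest the gene start among the introns counted here. Introns held as splicing bins are not counted, so an opening intron need not be the foremost of the transcript. In RefSeq TAIR10.1, of the 4300 long introns in genes with an annotated coding part, 84.2% lay between the ends of the coding part, 12.8% upstream of it in the 5' UTR and 3.02% in the 3' UTR, and the 5' UTR share of shorter introns was 2.81%. Of the 4464 long introns with an annotated strand, 4367 (97.8%) began with GT and ended with AG, and 32 of the other 97 had a GC start. The 5' site GTAAGT was found in 8.92% of the long introns and in 9.06% of the shorter ones. Only 1 long intron opened with a U12-type start (ATATCCTT or GTATCCTT, intron strand only), against 117 shorter ones. Median GC content was 32.7% in both width classes.

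The name "constitutive" was compared with the annotation. None of the 4479 overlapped an annotated alternative splicing bin of the deposited tables, though 272 (6.07%) touched one at an end. Introns and splicing bins are deposited as separate sets, so the absence of overlap may be fixed by their making and does not test the name. In RefSeq TAIR10.1, 966 long introns (21.6%) held exon bases of their own gene, against 6.43% of the shorter introns, and 278 lay wholly inside such an exon. In such members, part or all of the interval is annotated as exon in at least 1 transcript. Among the long introns tested further on, the share with such bases was 44.1%. It was 64.9% of those called higher, 32.8% of those called lower and 43.6% of those not called. Another gene of the deposited table overlapped 200 members (122 of those tested), and with RefSeq genes counted too the overlapped members were 411 (204 of those tested). As no strand-marking step is named and the counting rules are not known, reads of the genes cannot be told apart there. Fewer long introns than short ones were empty, with 17.5% against 34.3% at 0 reads in every library.

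Gene reads came to 15467372, 17217408 and 16543178 in the gemin2 libraries A to C, and to 14051562, 16732098 and 14049163 in the WT libraries A to C. Reads of GEMIN2 itself were 71, 77 and 74 in gemin2, against 239, 262 and 221 in WT. The labels do not say that the libraries of a genotype are separate cultures, so every p-value here reflects spread among libraries that may be technical. All 6 root markers and all 6 green tissue markers passed the gene filter. The 6 root markers summed to 332 to 384 CPM (reads scaled to library size) in gemin2 and 442 to 480 CPM in WT, and that gap lay in the iron transporter IRT1, at 185 to 224 CPM in gemin2 and 312 to 338 CPM in WT. The other 5, separated from it after their values were seen, summed to 147 to 160 CPM in gemin2 and 129 to 142 CPM in WT, with SCR and PHO1 higher in gemin2 and RHD6, COBL9 and EXPA7 lower. The 6 green tissue markers summed to 30224 to 32299 CPM in gemin2 and 30653 to 32788 CPM in WT, with LHCA1, LHCB2.1 and LHCB2.2 higher in gemin2 and RCA and CA1 lower. In bulk plants, fewer cells of a type and less RNA per cell cannot be told apart, and the part of these marker levels in the intron results was not tested.

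The long introns moved in both directions in gemin2. Of the 1149 that could be tested, in 1071 loci, 57 rose and 58 fell relative to their gene (edgeR quasi-likelihood test with Benjamini-Hochberg adjustment over all 4938 introns tested, threshold 0.05). Over all introns tested, 9.40% were called, 5.93% higher and 3.46% lower, so the 115 of 1149 were near that background. By comparison, 146 rose and 23 fell of 1551 tested introns under 100 bp, while the split was even in introns from 100 bp to under 400 bp, with 90 higher and 90 lower of 2238. The difference between these splits was not tested. The median log2 change was -0.06 over the long introns and -0.03 over all introns. Among the called members, 40 rose and 36 fell by at least 1 on the log2 scale. The genotypes did not overlap in reads per 100 gene reads for 354 tested long introns (30.8%), against 28.8% of all introns tested.

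Most long introns were not tested. Of the 4479, 3780 lay in genes that passed the gene filter and 3668 in such genes that averaged 20 reads or more, and 2519 of these introns were under the intron minimum. DESeq2 in place of edgeR called 10 higher and 7 lower long introns and 118 introns in all. Every edgeR call kept its sign (115 of 115), but both tools used the same counts and gene divisor, so the shared sign is no separate support. At an unadjusted p under 0.05 there were 121 long introns with DESeq2 and 299 with edgeR.

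**Figure D1:**
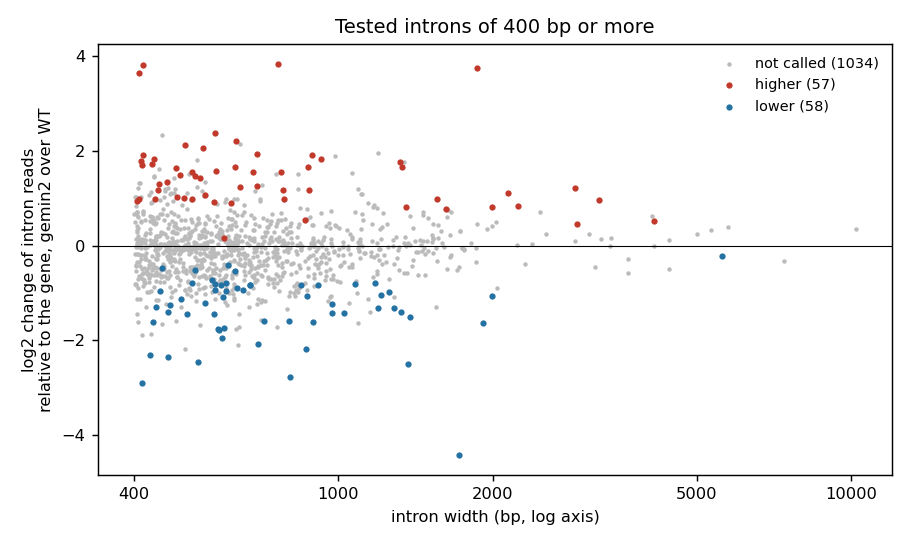
Log2 change of intron reads relative to the gene, gemin2 over WT, against intron width in bp (log axis), for the 1149 tested introns of 400 bp or more. Each point is an intron, red where it was called higher (57), blue where lower (58) and grey where not called (1034), and both directions occur in every width class.

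Called introns were found in every width class. Under 500 bp, 16 rose and 10 fell of 331, and from 500 to under 750 bp 19 rose and 25 fell of 443. From 750 to under 1000 bp 9 rose and 9 fell of 177, and from 1000 bp 13 rose and 14 fell of 198. The share called grew with the reads an intron had. It was 4.3% of the long introns with a mean under 10 reads per library, 11.9% from 10 to 30 reads and 18.1% from 30 reads, against 7.94%, 9.67% and 15.2% of the introns under 400 bp.

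The direction of the calls went with the position of the intron in the gene. In the 5' UTR, 24 long introns rose and 3 fell of 178 tested (13.5% and 1.69%), with a median log2 change of 0.22. In the coding part, 29 rose and 51 fell of 844 (3.44% and 6.04%), with a median of -0.11. In the 3' UTR, 3 rose and 3 fell of 82. The 5' UTR pattern was not particular to long introns: 29 of 315 shorter 5' UTR introns rose and 3 fell, with the same median of 0.22. Shorter coding introns had 198 higher and 104 lower of 3221, and a median of -0.04. These shares are descriptions, and the difference between positions was not tested.

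Within the coding part, the lower calls lay mainly in introns after the opening one. Of 504 such long introns, 15 rose and 37 fell (median log2 change -0.15), and of 340 opening coding introns 14 rose and 14 fell (-0.05). The 643 tested long introns without exon bases of their own gene in RefSeq had 20 higher and 39 lower calls. The 506 with such bases had 37 higher and 19 lower calls. In the 5' UTR, 18 rose and 2 fell of 118 introns with exon bases (median log2 change 0.28, 79 positive), and 6 rose and 1 fell of 60 without them (0.11, 32 positive). In the coding part, 15 rose and 15 fell of 296 with exon bases (-0.02), and 14 rose and 36 fell of 548 without them (-0.19). With DESeq2, 5 long 5' UTR introns rose and 0 fell, and 5 long coding introns rose and 6 fell.

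**Figure D2:**
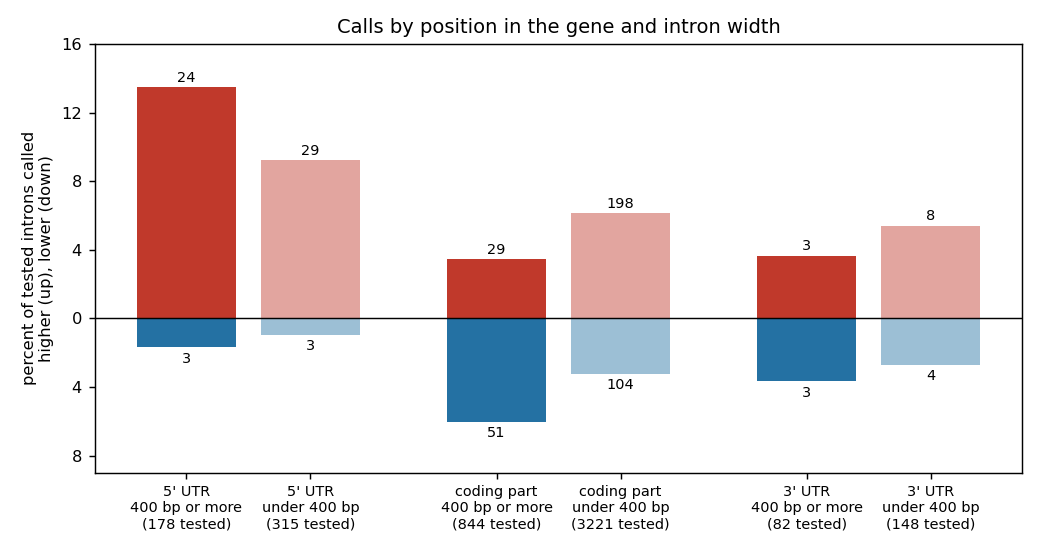
Percent of tested introns called higher (red, upward) and lower (blue, downward) in gemin2, by position in the gene and by width, with full colour for 400 bp or more and pale colour for under 400 bp. Numbers on the bars are introns; in the 5' UTR, 24 long introns were higher and 3 lower, and in the coding part 29 were higher and 51 lower.

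The medians of the separate libraries give the same division library by library. They use the same counts and gene divisor as the calls, so they are no separate support. For each tested intron its log2 ratio (intron over gene reads) was centred on its mean over the 6 libraries. The median over the long 5' UTR introns was 0.12, 0.176 and 0.17 in the gemin2 libraries A to C, against -0.021, -0.05 and -0.1 in the WT libraries A to C. For long coding introns it was -0.042, -0.011 and -0.051 in gemin2, against 0.157, 0.071 and 0.057 in WT. All gemin2 libraries thus lay above all WT libraries for the 5' UTR and below them for the coding part. Over all introns tested, the medians were 0.025, 0.034 and 0.031 in gemin2 A to C, against 0.095, 0.027 and 0.029 in WT A to C. WT A was thus the highest library over all introns, and it also stood farthest from gemin2 for the long coding introns. Without WT A, 30 long coding introns fell in place of 51, and the median over all long introns was -0.04 in place of -0.06. Reads per 1000 gene reads were also summed over tested long introns that overlap no other gene of the deposited table. RefSeq genes were not screened there. The 5' UTR class held 17.5, 17.4 and 17.6 in gemin2, against 15.1, 14.2 and 14.5 in WT. On this summed measure the genotypes overlapped for the coding class, with 19.4, 20.3 and 19.7 in gemin2, against 21.8, 19.5 and 18.9 in WT. Introns after the opening one, in any position, held 30.7, 31.7 and 31.1 in gemin2, against 38.4, 35.6 and 34.7 in WT.

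**Figure D3:**
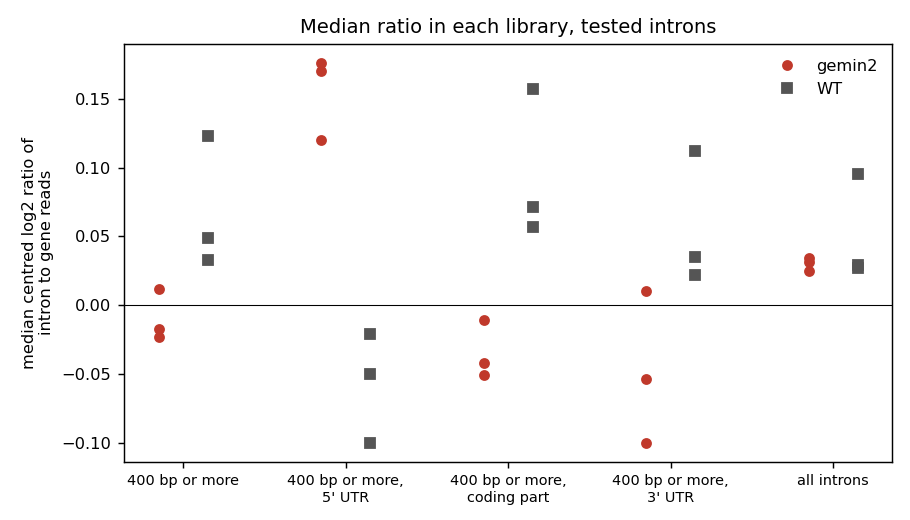
Median over tested introns of the centred log2 ratio of intron to gene reads, with a point for each library, gemin2 (red circles) left of WT (grey squares). The gemin2 libraries lie at 0.12 to 0.176 and the WT libraries at -0.1 to -0.021 for long 5' UTR introns, and in the opposite order for long coding introns.

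Among the 12 long introns with the clearest rise were introns of TASTY, the epithiospecifier protein that steers glucosinolate breakdown, of the chloroplast carbonic anhydrase CA1, of the YTH-domain m6A reader ECT8, and of the auxin response factor ARF1. They were the 12 with the smallest p among the higher calls that had a mean of at least 10 reads and no overlap between genotypes. Of them, 5 lay in the 5' UTR and 6 in the coding part, and 10 held exon bases of their own gene in RefSeq TAIR10.1.

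TASTY I001 (chr1:20171988-20173852, minus strand, 1865 bp) is the only intron of its gene in the table. It had 1081, 842 and 1057 reads in the gemin2 libraries, against 12, 7 and 14 in those of WT. The level was 32.3, 33.2 and 32.6 reads per 100 gene reads in gemin2, against 2.95, 1.38 and 3.04 in WT. The genotypes lay far apart, with every gemin2 library near 33. The log2 change relative to the gene was 3.75 ± 0.168 (SE, adjusted p = 1.57e-08, edgeR), on top of a rise of the gene itself by 2.62. RefSeq places 487 exon bases of TASTY inside this intron, and its deposited start is not a GT. TASTY lies near the mutated gene on chromosome 1 (GEMIN2 I003 is at chr1:20299245-20300121). Whether sequence linked to the mutation has a part in the change was not tested.

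ARF1 I002 (chr1:21979620-21980383, plus strand, 764 bp) is the opening one among the counted introns of its gene. It lies in the 5' UTR and touches an annotated alternative 5' site. Its reads were 32, 30 and 25 in gemin2 and 2, 1 and 1 in WT. With 4 reads in all WT libraries together, the WT level of 0.13 ± 0.0574 per 100 gene reads (SD, n = 3) is poorly fixed. In gemin2 it was 1.98 ± 0.277 (SD, n = 3), and no library crossed over. The log2 change was 3.84 ± 0.417 (SE, adjusted p = 4.75e-05, edgeR), while the gene rose by 0.39 on the log2 scale. No RefSeq exon of ARF1 and no other gene lies in this intron.

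CA1 I010 (chr3:196726-197651, minus strand) touches an annotated alternative 3' site. It had 0.428, 0.507 and 0.45 reads per 100 gene reads in gemin2, against 0.131, 0.123 and 0.135 in WT. Reads in the intron were higher in gemin2 although the gene fell by 0.64 on the log2 scale, and the change relative to the gene was 1.83 ± 0.117 (SE, adjusted p = 3.12e-07, edgeR). RefSeq has 717 of its 926 bases in an exon. Of the 7 other tested CA1 introns, 2 were called, and their log2 changes ran from -1.81 to 2.74.

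ECT8 I001 (chr1:29816191-29816606, 416 bp) had 7.92, 6.5 and 7.2 reads per 100 gene reads in gemin2, against 1.73, 1.71 and 2.35 in WT. That is a log2 change of 1.91 (adjusted p = 2.6e-05, edgeR) in an intron barely over the width limit. RefSeq has 325 of its 416 bases in an exon. AT2G46420 I001, in the 5' UTR of a gene annotated as a helicase with a zinc finger, stood at 8.1 ± 0.769 in gemin2 and 2.11 ± 0.23 in WT (SD, n = 3 each). AT3G26100 I001, in the 5' UTR of an RCC1 family gene, stood at 3.42 ± 0.0569 in gemin2 and 0.769 ± 0.0872 in WT (SD, n = 3 each). Their log2 changes were 1.93 and 2.13, and both introns lie wholly inside a RefSeq exon of their gene.

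AT2G41060 encodes an RNA-binding protein with RRM motifs, and its I002 (chr2:17128775-17129294) lies in the 3' UTR. Its levels of 23.2, 23.5 and 23.4 reads per 100 gene reads in gemin2 and 11.6, 11.7 and 11.9 in WT hardly varied within a genotype. Per base, that was 95.3% of the read density of the gene in gemin2 and 47.9% in WT. Density of a gene means its reads over the effective width the authors give, and whether these reads include intron reads is not known. The I002 interval lies wholly inside a RefSeq exon of the gene. The log2 change was 0.99 ± 0.118 (SE, adjusted p = 0.000117, edgeR). FLK, a KH-domain RNA-binding protein of the autonomous flowering pathway, had 10.1, 10.2 and 9.04 reads per 100 gene reads in its 5' UTR intron I006 in gemin2, against 5.81, 4.03 and 4.5 in WT. The libraries did not overlap, and the log2 change was 1.03 (adjusted p = 0.00093, edgeR). The FLK intron too lies wholly inside a RefSeq exon of its gene.

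AT1G18720 I003, in a gene for a putative ER membrane protein, is without exon bases or overlapping genes. It held 9.05 ± 0.935 reads per 100 gene reads in gemin2 and 3.99 ± 0.306 in WT (SD, n = 3 each), a log2 change of 1.18. The nitrilase gene ATNIT1, whose family can turn indole-3-acetonitrile into auxin, had 0.895, 0.45 and 0.914 in I002 in gemin2, against 0.273, 0.246 and 0.193 in WT. The gemin2 libraries spread widely there, yet gemin2 B still lay above all WT libraries. RefSeq has 440 of the 629 bases of this ATNIT1 intron in an exon. AT1G74340 I002 (log2 change 1.22) and AT1G24880 I006 (0.51) overlap other genes, whose reads cannot be told apart from theirs.

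**Figure D4:**
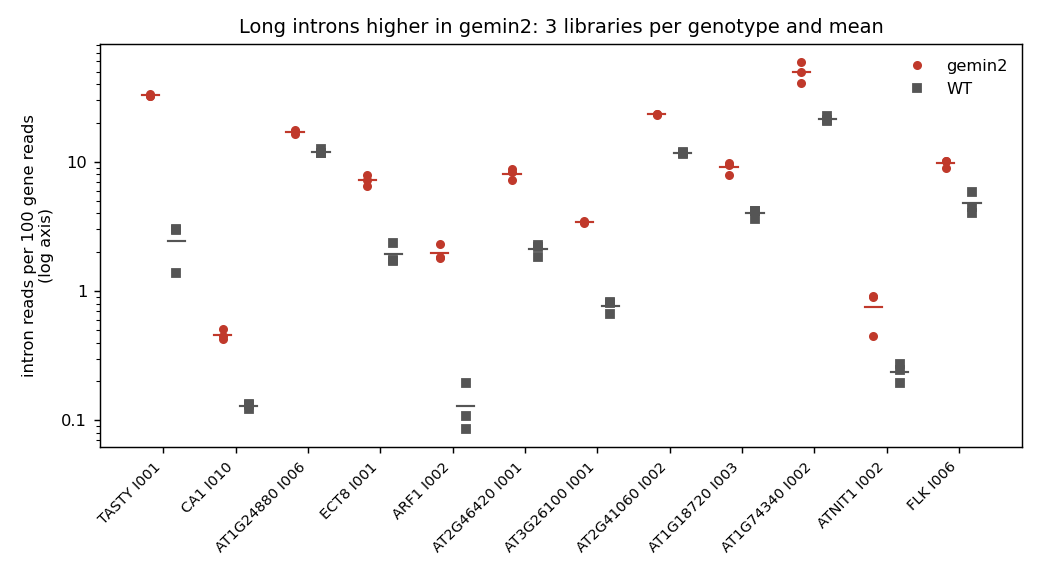
Reads per 100 gene reads (log axis) of the 12 long introns named as higher, with a point for each library and a bar at the mean, gemin2 (red circles) left of WT (grey squares). The genotypes do not overlap in any of the 12, as the naming rule required; TASTY I001 has 32.7 in gemin2 and 2.45 in WT on average.

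The 12 long introns with the clearest fall included introns of ELF3, a scaffold of the evening complex of the circadian clock, and of 3 genes annotated for RNA processing or export. They were chosen by the mirror of the rule for the higher ones. Of them, 10 lay in the coding part, and 4 held exon bases of their own gene, each of these 4 wholly inside an exon. The number of called introns in RNA processing genes was not compared with that of other genes.

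ELF3 I002 (chr2:11060837-11062016, plus strand, 1180 bp) had 83, 93 and 87 reads in gemin2, against 195, 220 and 145 in WT. Relative to the gene, gemin2 A, B and C had 10.1, 10.6 and 10.6 reads per 100 gene reads, against 18.1, 19.9 and 16.1 in WT. All gemin2 libraries lay below all WT libraries. The log2 change was -0.79 ± 0.115 (SE, adjusted p = 0.000633, edgeR), and the gene fell too, by 0.41. Per base the intron had 23.5% of the read density of the ELF3 gene in gemin2 and 40.6% in WT. It opens with GTAAGT and holds no RefSeq exon bases.

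AT3G20430 encodes a protein annotated as like the phosphorylated adapter for RNA export, which in vertebrates carries small nuclear RNAs out of the nucleus. Its I003 (chr3:7121975-7122506, plus strand, 532 bp) had 3, 7 and 7 reads in gemin2, against 26, 26 and 21 in WT. The level was 1.69, 2.86 and 3.3 reads per 100 gene reads in gemin2 and 16.5, 14.3 and 14.1 in WT. The WT libraries all exceeded the gemin2 libraries by a wide margin, for a log2 change of -2.45 ± 0.309 (SE, adjusted p = 0.000197, edgeR). The gene itself rose by 0.26 on the log2 scale.

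AT1G10890 encodes a homologue of the arginine and glutamate rich protein ARGLU1, a splicing regulator in mammals. Its I002 (chr1:3628230-3629097, plus strand, 868 bp) had 18.2, 15.9 and 17.3 reads per 100 gene reads in gemin2, against 37.7, 34.7 and 35.2 in WT. The groups were well apart, at a log2 change of -1.07 ± 0.112 (SE, adjusted p = 3.41e-05, edgeR), in a gene that fell by 0.76. The intron lies wholly inside a RefSeq exon, and relative to the other introns of the gene its log2 change was -0.67 (adjusted p = 0.0563, edgeR). AT1G60200 encodes a splicing factor with PWI and RRM domains. Its I006 held 7.58, 7.35 and 9.4 reads per 100 gene reads in gemin2 and 14.1, 14.8 and 13.9 in WT, with a log2 change of -0.82. That intron too is wholly exonic in some RefSeq transcript.

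Introns without exon bases or overlapping genes fell in ATINT1, AT3G46490 and AtIDD4. ATINT1, a vacuolar inositol transporter, had 2.26, 2.65 and 2.06 reads per 100 gene reads in I003 in gemin2, against 8.14, 6.94 and 6.25 in WT. AT3G46490, an oxygenase family gene, had 7.0 ± 2.3 in I004 in gemin2 and 21.8 ± 4.79 in WT (SD, n = 3 each). AtIDD4 is a zinc finger transcription factor whose gene rose by 0.8. Reads in its I001 were 16, 29 and 22 in gemin2 and 36, 28 and 31 in WT, so that the intron fell by 1.42 relative to the gene but the reads alone did not separate the genotypes. Without the gene offset its log2 change was -0.63 (adjusted p = 0.108, edgeR).

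AT2G39950 I002, which lies wholly inside a RefSeq exon of its gene, fell by 1.51 on the log2 scale. AT1G54350 I005 (chr1:20288397-20288978), which overlaps AT1G54355 and like TASTY lies near GEMIN2, fell by 1.75. The 3 remaining introns belong to a repeated cluster on chromosome 1. AT1G24880 I003 and AT1G25175 I002 have identical counts (615, 741 and 640 reads in gemin2, 1260, 1413 and 1085 in WT), so their fall by 0.83 is uncertain as to its locus. AT1G25054 I003, which overlaps 3 genes, fell by 0.22.

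**Figure D5:**
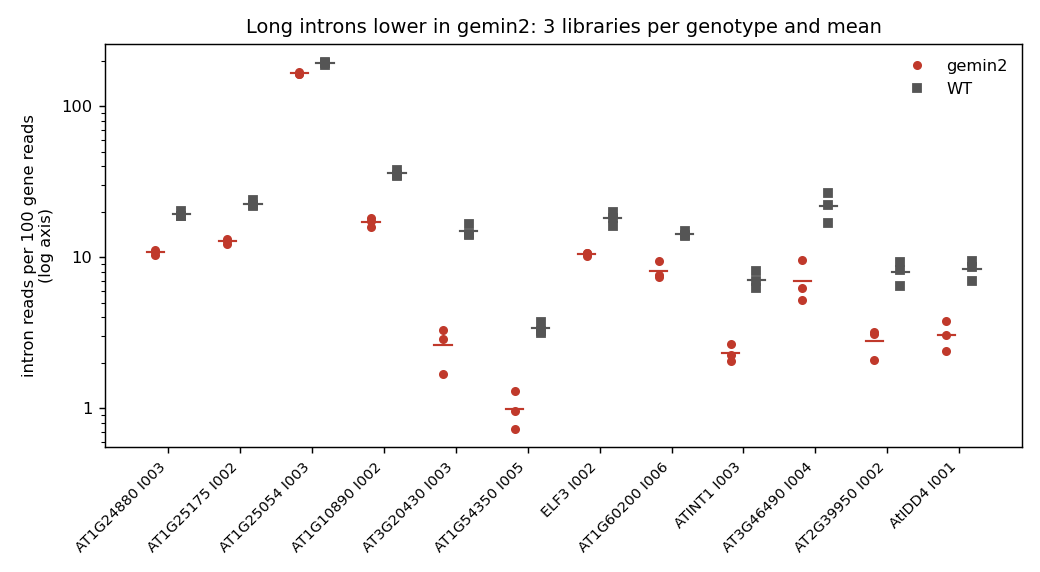
Reads per 100 gene reads (log axis) of the 12 long introns named as lower, with a point for each library and a bar at the mean, gemin2 (red circles) left of WT (grey squares). The genotypes do not overlap in any of the 12, as the naming rule required; AT3G20430 I003 has 2.61 in gemin2 and 14.9 in WT on average, and AT1G10890 I002 has 17.1 in gemin2 and 35.8 in WT.

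Of these 24 introns and the 6 further called ones named from GEMIN2, the gene lists and the other naming rules, 11 of 30 kept their call with DESeq2. Those are TASTY I001, CA1 I010, ECT8 I001, ARF1 I002, AT2G46420 I001, AT3G26100 I001 and ATNIT1 I002 among the higher ones. Among the lower ones they are AT3G20430 I003, AT1G54350 I005, ATINT1 I003 and AT3G46490 I004. The ELF3, AT1G10890, AT1G60200 and FLK introns, with adjusted p from 0.0837 to 0.329 in DESeq2, were not among them.

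Several larger changes fell outside the naming rule, those of NUDT22, AT1G01320 and XTH30 because of few reads. These introns were picked after their values were seen. NUDT22 I002 (1722 bp), which overlaps AT2G33900 and AT2G33910, had 0, 1 and 0 reads in gemin2 and 14, 6 and 8 in WT. AT1G01320 I023 (416 bp) had 8, 7 and 8 reads in gemin2, against 0, 0 and 1 in WT. XTH30 I003, in a gene of a xyloglucan endotransglucosylase, had 1, 2 and 0 reads in gemin2, against 8, 8 and 5 in WT. Each of these 3 was called, and in each the genotypes did not overlap. AT1G54790 I005 fell outside the rule because the genotypes overlapped in reads per 100 gene reads. It was called lower on 30, 50 and 36 reads in gemin2 and 512, 58 and 36 in WT, where WT A alone is high, and without WT A its log2 change was -0.28 (adjusted p = 0.567, edgeR).

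In the list of splicing factors and snRNP assembly proteins, 10 long introns were tested, of which 1 rose and 2 fell, with a median log2 change of -0.29. Over all introns tested the shares were 5.93% higher and 3.46% lower, and with so few tested members in this list and the others, nothing is read from the difference. The riser is in GEMIN2 itself. GEMIN2 I003 (chr1:20299245-20300121, minus strand, 877 bp) had 25.4, 33.8 and 29.7 reads per 100 gene reads in gemin2, against 11.3, 12.2 and 16.3 in WT, a log2 change of 1.16 ± 0.231 (SE, adjusted p = 0.00568, edgeR). The intron reads themselves were fewer in gemin2 and the gene reads fewer still: intron reads were 18, 26 and 22 in gemin2 and 27, 32 and 36 in WT. Without the gene offset the direction turned, with a log2 change of -0.65 (adjusted p = 0.0759, edgeR). DESeq2 gave an adjusted p of 0.203 for this intron.

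The introns that fell are in U2AF65B, the large U2AF subunit that binds the pyrimidine tract, and in the SR-like splicing factor SCL33. U2AF65B I004 (chr1:22425297-22425926, 630 bp) had 8.01, 8.35 and 8.03 reads per 100 gene reads in gemin2 A, B and C, a mean of 8.13 ± 0.19, against 11.7 ± 0.884 in WT (SD, n = 3 each). The groups were apart by more than their spread, with a log2 change of -0.53 ± 0.118 (SE, adjusted p = 0.0113, edgeR), but without WT B it was -0.46 (adjusted p = 0.0697, edgeR) and without the gene offset -0.37 (adjusted p = 0.0843, edgeR). SCL33 I003 (chr1:20631120-20631686, 567 bp) touches an annotated skipped exon and lies wholly inside a RefSeq exon of the gene. It had 11.1, 14.0 and 11.5 reads per 100 gene reads in gemin2, against 21.6, 20.5 and 18.8 in WT, and fell by 0.73 (adjusted p = 0.00511, edgeR). The other tested intron of SCL33 fell as well, by 1.01, and relative to it the log2 change of I003 was 0.09 (adjusted p = 0.892, edgeR). Both calls were lost with DESeq2.

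Of 3 tested long introns in the clock and light signalling list, ELF3 I002 fell and COP1 I006 rose. COP1, the E3 ubiquitin ligase that represses light responses, had 1.07, 1.65 and 2.31 reads per 100 gene reads in I006 in gemin2, against 0.767, 0.36 and 0.735 in WT. Its log2 change of 1.47 ± 0.434 rested on few reads, 9, 15 and 22 in gemin2 and 5, 3 and 5 in WT, and had an adjusted p of 0.0486 (edgeR). Leaving out any library other than gemin2 A put the adjusted p between 0.0817 and 0.173.

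The other lists had few tested long introns. In the cytoskeleton list, ACT3 I001, in the 5' UTR of an actin gene, was the riser among 2 tested. It had 3.03, 3.81 and 3.84 reads per 100 gene reads in gemin2, against 1.28, 0.887 and 1.26 in WT, and a log2 change of 1.64 (adjusted p = 0.00203, edgeR). This intron lies wholly inside a RefSeq exon of ACT3. FLK I006 was the riser among 9 in the flowering list, CA1 I010 among 2 in the photosynthesis list and ARF1 I002 among 3 in the auxin list.

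By read density per base relative to that of the gene, the introns called higher had a median of 11.2% in gemin2 and 4.49% in WT. Those called lower had 4.89% in gemin2 and 14.3% in WT, and those not called 6.67% in gemin2 and 6.93% in WT. The calls themselves fix the direction of these medians. GTAAGT opened 3 of the 57 introns called higher, 7 of the 58 called lower and 8.43% of those not called. Median GC content was 32.9%, 33.5% and 33.4% in these sets, and median width was 619, 633 and 605 bp.

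Gene-level changes were also counted for the loci of the long introns. Of the 1071 loci with a tested long intron, 194 rose and 254 fell (41.8% called), against 36.7% of all 20762 genes tested. Of the 57 genes whose long intron rose, 23 rose and 16 fell at the gene level, and of the 58 whose long intron fell, 12 rose and 17 fell. The gene count is the divisor of the ratio, so these counts are not independent of the intron calls.

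The 5 longest tested introns all overlap another gene, whose reads cannot be told apart from theirs, and of them AT1G25054 I003 was called. AT3G60961 I001, at 10234 bp the longest of them, had 161, 189 and 169 reads in gemin2, against 156, 133 and 134 in WT, which overlap once divided by the gene reads (log2 change 0.35, adjusted p = 0.218, edgeR). Gene reads of AT3G60961 were few, at 19, 22 and 25 in gemin2 and 19, 24 and 27 in WT. AT1G58602 I001, in a gene of a disease resistance protein, had 6.05 ± 1.03 reads per 100 gene reads in gemin2 and 7.56 ± 0.906 in WT (SD, n = 3 each), and its adjusted p was 0.136 (edgeR). Leaving out a library gave calls for both, AT3G60961 I001 at 0.6 without WT A (adjusted p = 0.0202) and AT1G58602 I001 at -0.46 without gemin2 A (adjusted p = 0.0361, edgeR).

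The long introns with the most reads per 100 gene reads were those that overlap another gene. HOS10 I002, which overlaps the annotated MYB-like gene AT1G35516, had 685, 789 and 703 reads in gemin2 and 768, 951 and 736 in WT, while HOS10 itself had 16, 35 and 27 in gemin2 and 40, 68 and 36 in WT. Its call as higher (log2 change 0.77, adjusted p = 0.0182, edgeR) turned to -0.29 without the gene offset (adjusted p = 0.0291) and was lost without WT B (0.62, adjusted p = 0.0697). In 17 tested long introns the intron had more reads than its gene in at least 1 library, so the gene count there cannot include all intron reads.

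At the width limit, the members with the most reads just inside were AT-E1.ALPHA I003 (400 bp), ATLPP3 I006 and WOL I010 (401 bp each), with log2 changes of 0.67, 1.01 and 0.49. Just outside, 1 bp under the limit, DELTA-TIP1 I002, MUB1 I001 and EIF4G I009 had -0.16, -0.75 and -0.21. None of the 6 was called, with adjusted p from 0.0759 to 0.895 (edgeR).

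The authors' deposited table of changed introns lists 120 of the long introns, 70 higher and 50 lower in the mutant. That is 2.68% of the long introns, against 1.17% of all introns of the count table. These shares are not matched for read depth. Reads sufficed for a test here in 1149 of 4479 long introns, against 4938 of all 65535 introns. All 115 of the listed long introns that were tested here had the same sign as in the authors' deposited table. Of them, 74 were called here, 61.7% of the listed and 64.3% of the called long introns. The authors' deposited table runs to an adjusted p of 0.0997, against the threshold of 0.05 used here. Both analyses use the same libraries.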

How the data were processed

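The values deposited by the authors are raw read counts of genes and introns, in whole numbers. The submitters' processing notes name build TAIR10, edgeR 3.4.2, R 3.0.2 and TopHat2 2.0.9, and the rules of counting are not given in the sources used. The intron table is held in part and ends within chromosome 3. The authors' deposited table gives log2 changes and adjusted p-values (false discovery rates). Columns carry letters A to C that no label ties to replicate numbers, and 0 columns of sample values were left out.

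The test of introns was edgeR 4.0.16 (R 4.3.3), using the log of the gene count in the same library as offset, on the whole table. Genes had to pass filterByExpr (minimum 10) and average 20 reads or more, and introns had to pass filterByExpr with a minimum of 5. Ratios had 0.5 added to both counts. Genes were tested with TMM scaling. The fit was also run on simulated counts drawn with the dispersion estimated by edgeR itself. Such a run cannot decide between edgeR and DESeq2 on the real counts. DESeq2 1.42.0 was an alternative.

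Positions, exons and sequences came from RefSeq TAIR10.1. At the deposited coordinates, 64456 of 65405 introns with a strand had GT-AG ends. Named introns are, among called long introns with no overlap between genotypes and a mean of at least 10 reads, the 12 higher and 12 lower with the smallest p, then the 5 longest, the 5 with most reads per 100 gene reads, 3 on each side of the width limit, those of GEMIN2, and up to 4 called (otherwise the best 1) of each gene list. Members, lists and tests were chosen with earlier results of these data known. Calls per intron are to be read with the depth given for each, since shallow introns have wide errors.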

Additional observations from a re-analysis of the deposited data

How the results depend on the processing

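The main fit called 57 higher and 58 lower long introns (115) and 464 of all introns. Another gene divisor, no intron filter, a robust fit, and width limits of 300 or 500 bp kept the counts within 1.5 times. So did leaving out introns that overlap another gene of the deposited table. An intron minimum of 20 left 81 long introns (20.9% of those tested) but 209 of all introns (18.4%). With no intron filter the shares were 3.28% of the long and 1.28% of all introns tested. Without the gene offset there were 181 long introns, 104 of them lower (8 in the 5' UTR, 81 in the coding part), and the median log2 change was -0.12. The shares called were then 15.8% of the long and 13.9% of all introns tested. DESeq2 called 17 long introns (10 higher, 7 lower; 5' UTR 5 and 0, coding part 5 and 6) and 118 of all introns; the cause was not tested. Of 30 named introns called by edgeR, 19 lost their call with DESeq2. Chosen after seeing the data, a fit to introns free of other annotated exons tests fewer introns (557 long). This fit called 7.9% of these long introns and 9.55% of all introns it tested. It called 44 long introns (14 higher, 30 lower; 5' UTR 5 and 0, coding part 9 and 30) and 283 of all, with a median of -0.19. The other introns of the locus as divisor, also chosen after seeing the data, gave 365 long introns tested. This divisor gave calls in 11.8% of these long introns and in 6.98% of all introns tested with it. It called 43 (18 higher, 25 lower; 5' UTR 6 and 2, coding part 8 and 19) and 181 of all, with a median of 0.038. Leaving out 1 library gave 79 to 89 long introns, 37 to 45 higher and 36 to 47 lower, 322 to 352 of all introns, and medians of -0.113 to -0.036. The shares called in these fits were 6.13% to 7.01% of the long introns and 5.63% to 6.23% of all introns tested. In the 5' UTR these fits gave 17 to 19 higher and 1 to 3 lower, in the coding part 17 to 22 higher and 30 to 42 lower, and 6281 to 6817 genes against 7626. Counts moved by over 1.5 times without WT A (36 lower, 30 of them in the coding part), gemin2 A (38 and 33) and WT C (37 higher, 17 in the coding part), and the 5' UTR count of 3 lower became 1 without WT C or gemin2 B. Reversed values were HOS10 I002 at -0.29 and GEMIN2 I003 at -0.65 without the gene offset, and SCL33 I003 at 0.09 relative to other introns. The median over the long introns also changed sign relative to other introns, to 0.038 over the 365 tested. Column letters did not pair the libraries (correlations of same-letter deviations -0.00555, -0.0156 and -0.0578). A block by letter called 8.18% of the long and 7.57% of all introns tested. With the letter as a block, 94 long introns (45 higher, 49 lower; 5' UTR 20 and 2, coding part 21 and 44), 374 of all introns and 7512 genes were called, with a median of -0.06; of the named introns, the block ended only the call of COP1 I006.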

Other observations

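The following are a few of the called long introns outside the naming rule, picked after their values were seen, so their directions say nothing of the position pattern. In the 5' UTR, ATSK12, a GSK3-like kinase, had 1.46, 1.27 and 1.95 reads per 100 gene reads in I001 in gemin2, against 0.571, 0.497 and 0.666 in WT. VIP5, a subunit of the Paf1 complex of transcription elongation, had 48, 38 and 48 reads in I001 in gemin2, against 18, 17 and 16 in WT. CHR5, a chromatin remodeller, had 14, 26 and 13 reads in I030 in gemin2, against 6, 3 and 4 in WT. Their log2 changes relative to the gene were 1.43, 0.98 and 1.57. RefSeq has exon bases in the VIP5 and CHR5 introns and none in that of ATSK12. The other way, 5' UTR intron AT2G27730 I003 had 32, 18 and 24 reads in gemin2, against 50, 47 and 46 in WT (log2 change -0.83), and AT1G18690 I003 had 11, 11 and 10 in gemin2, against 12, 28 and 19 in WT (-1.13).

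In the coding part, RNA helicase gene DRH1 had 6.76, 7.78 and 7.77 reads per 100 gene reads in I007 in gemin2, against 10.5, 9.46 and 9.84 in WT (log2 change -0.42, adjusted p = 0.00821, edgeR). SUF4, a zinc finger activator of the floral repressor FLC, had 66, 87 and 69 reads in I001 in gemin2, against 115, 105 and 94 in WT, with a log2 change of -0.78. RPT2, a phototropin signalling protein, had 0.316, 0.277 and 0.242 reads per 100 gene reads in I001 in gemin2, against 0.444, 0.618 and 0.708 in WT, with a log2 change of -1.09. The DRH1 and RPT2 introns hold no exon bases of their genes, and that of SUF4 (519 bp) lies wholly within an exon in RefSeq. Coding introns called higher include AT1G13880 I001, with 25, 26 and 41 reads in gemin2 and 3, 8 and 3 in WT (log2 change 2.06), and FZL I003, with 15, 12 and 18 in gemin2 and 7, 6 and 2 in WT (1.72).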
